A study of Mus musculus with 4 samples.

Results

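The *Hox* genes of the mouse were examined for H3K27ac in liver sinusoidal endothelial cells (LSECs), the fenestrated endothelium that lines the liver sinusoids. They are the 39 protein-coding genes of the GRCm38 annotation named Hoxa, Hoxb, Hoxc, or Hoxd followed by a number, out of 21887 protein-coding genes, and were chosen by name alone. They form 4 clusters, and peaks were read in each cluster from its first to its last gene plus 10 kb on either side. The 4 windows held 17 of the 26975 peaks of library C2 and 72 of the 64498 peaks of library C3.

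*Hox* genes encode homeodomain transcription factors that give cells along the head-to-tail axis their positional identity. Genes with the same number in different clusters are paralogues that descend from 1 ancestral gene, and within a cluster the low-numbered (anterior) genes are used earlier and closer to the head than the high-numbered (posterior) genes. Adult cells keep a part of this pattern, held by Trithorax proteins at active genes and by Polycomb proteins, which deposit methylation on the same lysine of histone H3 that is acetylated in H3K27ac, at silent genes. H3K27ac marks active promoters and enhancers.

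The study mapped H3K27ac by ChIP-Seq in LSECs to look for enhancers of the type IV collagen genes. Its 4 samples are 1 H3K27ac library and 1 input library for each of C2 and C3. No difference of condition is given between C2 and C3, and the 2 inputs were not analysed here. According to its methods, mouse LSECs came from *Col4a1* fl/wt mice without or with the *Cdh5* CreERT2 allele (a tamoxifen-inducible Cre driven in endothelium) or from mice that joined this allele to *dCas9-KRAB*. In its general isolation protocol the cells were captured with beads against CD146, an endothelial surface protein that is not restricted to sinusoids, and were cultured for 4 hours. Its ChIP-Seq methods name isolation and cross-linking and no culture step, so whether these cells were cultured is not given. Which of these mice gave C2 and C3, their treatment, age, and sex, and whether the libraries came from separate animals are not given in the sources used here.

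C3 had more peaks than C2. Read counts are not part of the lists, which leaves the sequencing depth behind them unknown, and a gene without a C2 peak cannot be read as lacking the mark. Since no difference of condition is given between the libraries, no comparison of conditions could be tested, and all values below are descriptions. Of 12 LSEC marker genes, 9 had peaks in both libraries less than 1 kb from a gene end and all 12 had one in C3. Over all protein-coding genes the shares were 43.4% for both libraries and 53.9% for C3. The same count of both libraries was 1 of 8 for hepatocyte markers (*Ass1*, with *Apoa1* in C3 only) and 0 for the 8 hepatic stellate cell, 6 Kupffer cell, 5 cholangiocyte, and 6 lymphocyte markers, of which C3 alone had a peak at *Col1a1*, *Epcam*, and *Cd4*. *Clec4g*, *Mrc1*, and *Stab2*, which help define LSECs, had a C3 peak only. Their highest C3 fold enrichment (ratio of signal to background) was low, at 4.56, 4.15, and 5.86. The markers of other cells *Col1a1* (12.0), *Cd4* (11.8), *Apoa1* (11.4), and *Ass1* had higher C3 values, and *Epcam* had 5.86. Over all 12 LSEC markers the C3 median was 14.11 (4.15 to 60.3).

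The promoter sequences that carry the main contrast between the clusters are shown first. Each is the 250 bases before a start listed by RefSeq (GRCm38.p6), 5′ to 3′ on the strand of the gene. *Hoxa5* (chr6:52204588-52204837, minus strand) lies under the strongest peak of all 4 windows in both libraries, and *Gm15050* (chr6:52172631-52172880, plus strand), a noncoding RNA within the *Hoxa3* gene, had a peak of both over most of these bases. Capitals mark bases under peaks of both libraries, which were 142 of 250 at *Hoxa5* and 224 of 250 at *Gm15050*. C3 peaks covered all 250 bases of each.
Hoxa5: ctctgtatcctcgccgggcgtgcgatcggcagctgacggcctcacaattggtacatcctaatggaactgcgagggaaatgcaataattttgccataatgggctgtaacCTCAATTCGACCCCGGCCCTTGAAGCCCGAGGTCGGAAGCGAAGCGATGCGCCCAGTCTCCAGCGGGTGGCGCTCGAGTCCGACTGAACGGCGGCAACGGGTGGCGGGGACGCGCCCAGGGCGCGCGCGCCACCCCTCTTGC
Gm15050: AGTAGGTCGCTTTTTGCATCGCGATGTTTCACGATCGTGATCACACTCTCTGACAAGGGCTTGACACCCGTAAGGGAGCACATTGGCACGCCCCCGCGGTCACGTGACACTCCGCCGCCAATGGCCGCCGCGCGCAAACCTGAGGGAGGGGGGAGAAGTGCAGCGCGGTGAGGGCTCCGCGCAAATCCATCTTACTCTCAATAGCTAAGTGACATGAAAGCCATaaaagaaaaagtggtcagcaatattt

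The next 4 promoters are paralogue pairs that differed between clusters, *Hoxb4* (chr11:96318017-96318266, plus strand) with *Hoxd4* (chr2:74721728-74721977, plus strand), and *Hoxa13* (chr6:52260881-52261130, minus strand) with *Hoxd13* (chr2:74667975-74668224, plus strand). Here capitals mark bases under a C3 peak, since no C2 peak reached any of the 4. C3 peaks covered 160 of 250 bases of *Hoxb4* and 225 of *Hoxa13*, and none of *Hoxd4* or *Hoxd13*. The peak over the *Hoxb4* bases (chr11:96318099-96318258) was weak, with a fold enrichment (ratio of signal to background) of 4.67, at the 12.7th percentile of the C3 list. It is separate from the 17.5-fold C3 peak inside the *Hoxb4* gene, which covers none of these bases.
Hoxb4: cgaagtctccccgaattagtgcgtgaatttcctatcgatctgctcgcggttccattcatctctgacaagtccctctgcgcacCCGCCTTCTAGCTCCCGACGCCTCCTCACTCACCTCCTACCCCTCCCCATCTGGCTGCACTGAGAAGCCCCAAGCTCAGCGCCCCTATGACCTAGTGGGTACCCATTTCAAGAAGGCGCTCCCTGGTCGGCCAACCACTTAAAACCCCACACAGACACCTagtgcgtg
Hoxd4: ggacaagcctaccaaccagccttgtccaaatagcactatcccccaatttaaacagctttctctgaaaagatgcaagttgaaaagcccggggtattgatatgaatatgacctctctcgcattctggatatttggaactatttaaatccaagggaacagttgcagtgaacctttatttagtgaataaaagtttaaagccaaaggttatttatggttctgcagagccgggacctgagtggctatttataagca
Hoxa13: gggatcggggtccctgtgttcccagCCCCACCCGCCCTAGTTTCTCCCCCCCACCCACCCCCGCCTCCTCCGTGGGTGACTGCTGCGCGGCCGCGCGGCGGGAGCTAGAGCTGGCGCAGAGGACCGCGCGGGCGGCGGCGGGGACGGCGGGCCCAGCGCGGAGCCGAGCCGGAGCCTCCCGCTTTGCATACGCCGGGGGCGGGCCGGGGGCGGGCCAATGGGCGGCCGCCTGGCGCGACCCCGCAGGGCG
Hoxd13: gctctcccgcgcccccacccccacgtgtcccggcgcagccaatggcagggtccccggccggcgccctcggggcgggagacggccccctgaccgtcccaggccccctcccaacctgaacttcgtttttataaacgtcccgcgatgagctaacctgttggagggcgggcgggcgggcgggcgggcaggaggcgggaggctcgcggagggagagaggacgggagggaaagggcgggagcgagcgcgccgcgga

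Within 1 kb of either end, 22 of the 39 *Hox* genes (56.4%) had an H3K27ac peak in C3, and 6 (15.4%) had one in C2. The background over all protein-coding genes was 53.9% in C3 and 43.4% in C2. The share of *Hox* genes with a peak was thus close to the background in C3 and below it in C2. All 6 genes with a C2 peak, among them *Hoxa2*, *Hoxa4*, *Hoxa5*, *Hoxa6*, and *Hoxb4*, also had a C3 peak. So did 9494 of the 9498 protein-coding genes with a C2 peak. Peaks of both libraries were thus present at 15.4% of *Hox* genes, against 43.4% of all protein-coding genes. In the C3 list, the highest fold enrichment at the 22 *Hox* genes had a median of 10.7 (3.84 to 76.7), and over the 11792 protein-coding genes with a C3 peak the median was 38.7. In the C2 list the corresponding medians were 10.8 for the 6 *Hox* genes (4.74 to 26.4) and 16.3 for all genes. Fold enrichment is the ratio of signal to background that the authors' peak caller gave to each peak. Counted by the 5′ start alone, 20 of the 39 *Hox* genes had a C3 peak and 5 a C2 peak, all 5 with a C3 peak too, where the strand of 17 genes was read from the other members of their cluster. Of the 22 *Hox* genes with a listed strand, 12 (54.5%) had a C3 peak and 3 (13.6%) a C2 peak, the 3 with peaks of both, beside 55.5% (C3), 46.5% (C2), and 46.5% (both) of the 17492 protein-coding genes with one. *Hoxa6*, *Hoxb3*, and *Hoxd11* owed their count of C2 or C3 peaks in whole or part to the far end. With the gene body included, 27 *Hox* genes had a C3 peak and 8 a peak of both libraries, beside 62.9% (C3) and 51.3% (C2 and both alike) of all protein-coding genes.

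By cluster, a C3 peak was present at 10 of 11 *Hoxa* genes, 7 of 10 *Hoxb* genes, 2 of 9 *Hoxc* genes, and 3 of 9 *Hoxd* genes. A C2 peak was present at 5 *Hoxa* genes and 1 *Hoxb* gene, and at no *Hoxc* or *Hoxd* gene. By position, the anterior paralogue groups 1 to 3 had C3 peaks at 5 of 8 genes and C2 peaks at 2, and the central groups 4 to 8 had them at 10 of 15 and 4. The posterior groups 9 to 13 had C3 peaks at 7 of 16 genes and no C2 peak. Of these 16 genes, 5 are of Hoxc and 5 of Hoxd, so position and cluster are mixed. The posterior genes with a C3 peak were 3 of 4 in Hoxa, 1 of 2 in Hoxb, 1 of 5 in Hoxc, and 2 of 5 in Hoxd. Over all protein-coding genes the shares were 53.9% in C3 and 43.4% in C2. The 17 genes with no peak at either end in either library were *Hoxa9*, *Hoxb1*, *Hoxb6*, *Hoxb13*, *Hoxc4*, *Hoxc5*, *Hoxc8*, *Hoxc9*, *Hoxc11* to *Hoxc13*, *Hoxd1*, *Hoxd3*, *Hoxd4*, *Hoxd10*, *Hoxd12*, and *Hoxd13*. Of these, *Hoxa9* lay just past the 1 kb limit, with a C3 peak 1021 bp from its start, and *Hoxc6* lay just within it, with a C3 peak at 985 bp.

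**Figure D1:**
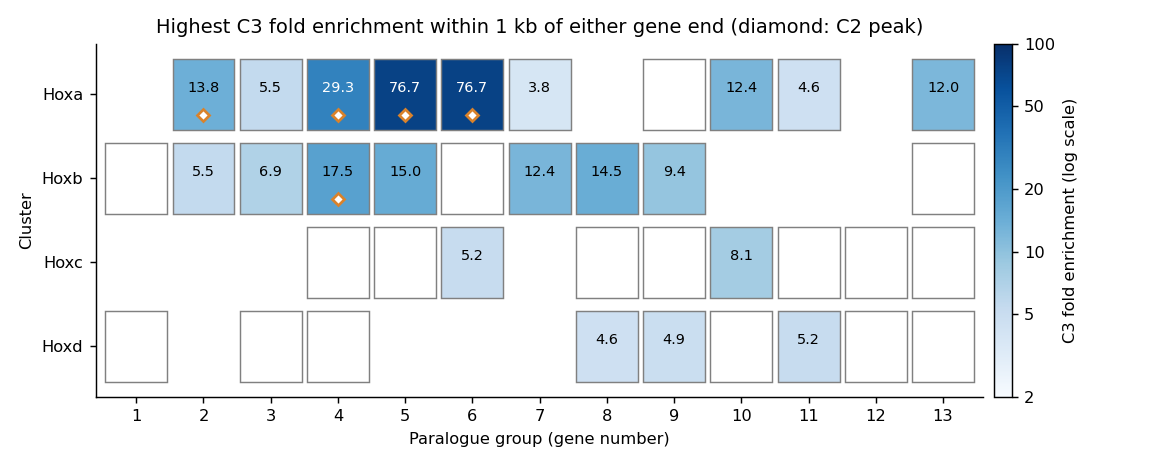
Grid of 38 *Hox* genes by cluster (rows) and paralogue group (columns). Color and number give the highest C3 fold enrichment (log color scale) of a peak within 1 kb of either gene end, an orange diamond marks a C2 peak there, and an empty box is a gene with no C3 peak. Among these genes, values above 20 occur only in the Hoxa row, at groups 4, 5, and 6, and the diamonds sit at 4 Hoxa genes and at *Hoxb4*. The value and diamond of *Hoxa6* are those of the *Hoxa5* peak, which lies near the far end of *Hoxa6*.

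The Hoxa window (chr6:52145367-52270880, 125.5 kb) held 15 C2 peaks and 37 C3 peaks in 37 separate regions, of which 14 carried peaks of both libraries. C2 peaks covered 3.63% of the window, C3 peaks 11.3%, and peaks of both 3.57%. The Hoxb window (chr11:96184316-96378254, 193.9 kb) held 2 C2 peaks and 25 C3 peaks, and the C3 peaks covered 4.67% of it. The Hoxc window (chr15:102911131-103046856, 135.7 kb) held 4 C3 peaks covering 0.947%, and the Hoxd window (chr2:74658225-74775142, 116.9 kb) held 6 covering 1.12%. Neither had a C2 peak. Per 100 kb there were 29.5 C3 peaks in Hoxa, 12.9 in Hoxb, 2.95 in Hoxc, and 5.13 in Hoxd. No density or coverage of the whole genome was computed. These values rank the 4 windows among themselves and do not show that any window has fewer peaks than the genome.

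**Figure D2:**
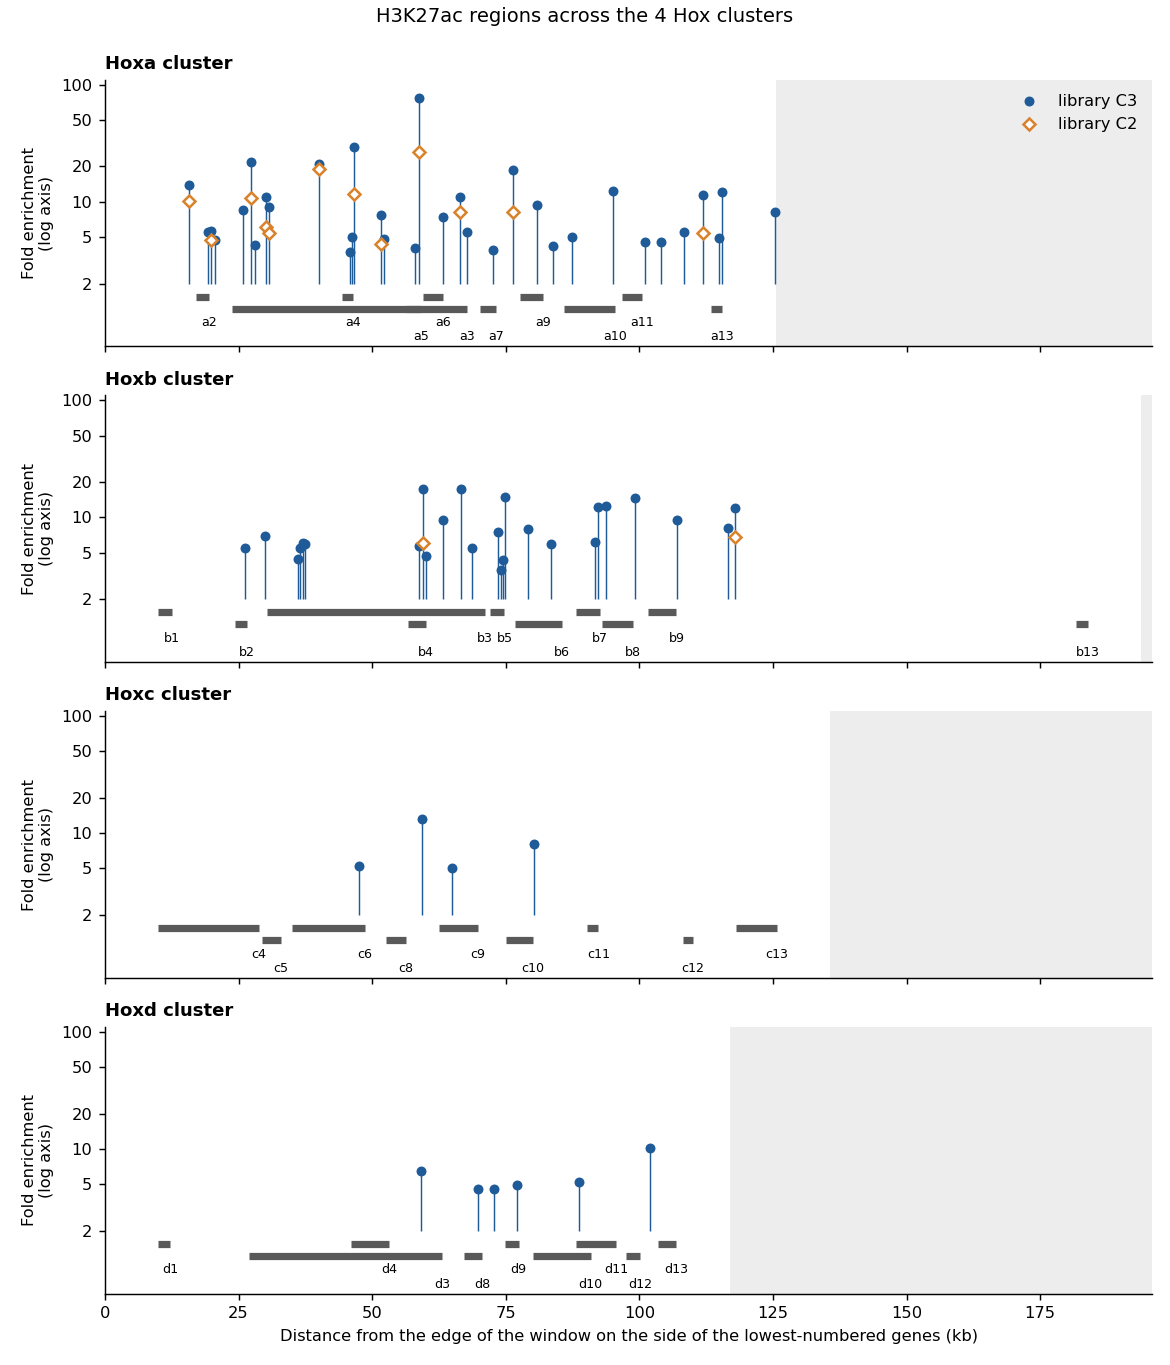
H3K27ac peaks along the 4 *Hox* windows, drawn to the same scale, with the distance in kb from the window edge on the side of the lowest-numbered genes on the x axis and fold enrichment on a log y axis. Blue points on stems are C3 peaks, orange diamonds are C2 peaks (the stronger 1 where a region held 2), gray bars are 38 *Hox* genes, 4 of the 72 regions are not drawn, and shading lies beyond the window. C3 peaks are dense across Hoxa, reach 76.7 at *Hoxa5*, run from *Hoxb2* to just past *Hoxb9* in Hoxb, and number 4 and 6 in Hoxc and Hoxd.

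The strongest peak of the 4 windows lay over the start of *Hoxa5*, a regulator of lung and trunk skeleton development, at chr6:52203577-52204845. Its fold enrichment was 76.7 in C3 and 26.4 in C2, at the 96.8th percentile of the C3 list and the 91.8th of the C2 list. The C3 summit was 57 bp from the *Hoxa5* start. The peak ends just before the end of *Hoxa6*, so the C2 peak counted for *Hoxa6* is this same peak. At the start of *Hoxa6* itself there was only a C3 peak, with a fold enrichment of 7.38.

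At the start of *Hoxa2*, a gene of hindbrain patterning, the fold enrichment was 5.61 in C3 and 4.74 in C2. The highest C3 value counted for *Hoxa2*, 13.8, came from its far end.

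Another strong peak lay 205 bp by its summit from the start of *Hoxa4* (chr6:52191771-52192273), with 29.3 in C3 and 11.5 in C2. The *Hoxa3* gene, which is needed for thymus and parathyroid formation, is annotated as 44009 bp long and spans *Hoxa4*, *Hoxa5*, and *Hoxa6*. It held 16 C3 and 8 C2 peaks in its body, and those cannot be assigned to *Hoxa3* rather than to the genes it spans. At the *Hoxa3* start only C3 had a peak, of 5.50. Between the starts of *Hoxa2* and *Hoxa4*, within the annotated *Hoxa3* gene, the stronger peaks of both libraries lay at the promoter of *Gm15050* (chr6:52172500-52172937; 21.7 in C3 and 10.8 in C2) and at chr6:52185101-52185695 (20.9 and 19.0). The latter ranked higher in the C2 list (percentile 81.1) than in the C3 list (percentile 75.9). Weaker peaks of both libraries lay there at chr6:52175131-52175700 (11.1 and 6.10) and chr6:52175995-52176274 (9.09 and 5.42).

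The posterior *Hoxa* genes had C3 peaks of at most 12.4-fold at their ends, and no C2 peak. *Hoxa10*, a gene of the uterus and of hematopoiesis, had 12.4 in C3 195 bp from its start, and *Hoxa13*, a gene of digits and the hindgut, had 12.0 across its start. *Hoxa11* had 4.56 and *Hoxa7* 3.84 in C3, and none of these 4 had a C2 peak. *Hoxa9*, which acts in blood and endothelial progenitors, had a C3 peak of 9.44 within its body. Past *Hoxa7*, both libraries had peaks only between genes, at chr6:52221445-52222022 between *Hoxa7* and *Hoxa9* (18.6 in C3, 8.13 in C2) and at chr6:52257023-52257368 between *Hoxa11* and *Hoxa13* (11.4 and 5.42). *Hottip*, a noncoding RNA at the posterior tip of the cluster, had no peak in its body, the nearest lying 1670 bp away in C3 and 5407 bp in C2.

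Split midway between *Hoxa7* and *Hoxa9*, the anterior and central side of the Hoxa window had peaks of both libraries over 5.22% of its length, in 12 of 25 regions. The posterior side had them over 1.08%, in 2 of 12 regions. C3 peaks covered 13.9% and 7.36% of these sides. In Hoxb, C3 peaks covered 8.12% of the side of *Hoxb1* to *Hoxb8* and 0.972% of the side of *Hoxb9* and *Hoxb13*. The latter side is 93.7 kb long with only 2 *Hox* genes, and includes the wide gap between them. In Hoxc, C3 peaks covered 1.09% of the side of *Hoxc4* to *Hoxc8* and 0.836% of the side of *Hoxc9* to *Hoxc13*, from 2 peaks each. In Hoxd the order was the other way, with 0.635% of the side of *Hoxd1* to *Hoxd8* and 1.91% of the side of *Hoxd9* to *Hoxd13*, from 2 and 4 peaks.

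Of the 14 *Hoxa* regions with peaks of both libraries, 10 overlapped a *Hox* gene, 8 of them *Hoxa3*, and 3 overlapped no annotated gene. Only 4 had a C3 summit within 1 kb of a *Hox* start. The C3 fold enrichment was 1.10 to 4.04 times that of C2, with a median of 1.91, and the summits of the 2 libraries lay a median of 57 bp and at most 107 bp apart. In C3, 12 of the 14 were above the median peak of the whole list, and in C2, 6 were. The 14 were selected for a C2 peak, and across the whole list C3 peaks with a C2 peak were the stronger ones. The median C3 fold enrichment of the 14 was 16.2, below the median of all C3 peaks with a C2 peak. The 23 *Hoxa* regions of C3 alone had a median fold enrichment of 4.88 (3.68 to 12.4), and 12 of them lay within 1 kb of a *Hox* start. Their median was likewise below that of all C3 peaks without a C2 peak. These differences were not tested.

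In Hoxb, the highest peak lay in *Hoxb4*, known for the expansion of hematopoietic stem cells, at chr11:96318505-96318961, with 17.5 in C3 and 6.03 in C2. This was the only *Hoxb* gene with a C2 peak at an end, and the C2 value was at the 12.4th percentile of its list. The next regions were found in C3 alone, at chr11:96311138-96311994 within *Hoxb3* (17.3) and at chr11:96303102-96303547 over the start of *Hoxb5* (15.0), a gene expressed in endothelial precursors and hematopoietic stem cells. C3 values of 14.5 at *Hoxb8*, 12.4 at *Hoxb7*, 9.44 at *Hoxb9*, and 5.50 at *Hoxb2* followed. The value of 6.93 counted for *Hoxb3* came from its far end, and at its start no peak was found. *Hoxb6* had its nearest C3 peak 1.81 kb from its start and *Hoxb1* 13.7 kb. *Hoxb13*, a gene of the prostate and tail that is set apart from the rest of the cluster, had none within 65.9 kb. The only other C2 peak of Hoxb lay in the noncoding gene *Gm53* on the *Hoxb9* side (chr11:96260228-96260641), with 6.78 in C2 and 11.9 in C3.

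In Hoxc, all 4 peaks were of C3. The highest (13.4, chr15:102987417-102987791) lay between *Hoxc9* and *Hoxc8*, and the others lay upstream of *Hoxc10* (8.14), in *Hoxc6* (5.21), and in *Hoxc9* (5.08). *Hoxc13*, needed for hair and nail formation, was 45.4 kb from the nearest C3 peak, and *Hotair*, a noncoding RNA of this cluster, was 18.6 kb from it. The nearest C2 peaks lay 129 to 209 kb from the starts of the *Hoxc* genes.

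In Hoxd, the 6 C3 peaks were led by 1 between *Hoxd13* and *Hoxd12* (10.2, chr2:74672869-74673277), 1 in *Hoxd3* and the antisense gene *Hoxd3os1* (6.49, chr2:74715866-74716119), and 1 shared by *Hoxd11* and *Hoxd10* (5.21, chr2:74686391-74686564). *Hoxd9* and *Hoxd8* followed at 4.88 and 4.56 near their starts. *Hoxd13*, the main digit gene of the cluster, had its nearest C3 peak 4.64 kb from its start, *Hoxd4* 5.86 kb, and *Hoxd1* 46.9 kb. The nearest C2 peaks lay 62.8 to 121 kb from the starts of the *Hoxd* genes.

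All 17 C2 peaks in the windows overlapped a C3 peak. In the other direction, 16 of the 72 C3 peaks (22.2%; 95% Wilson interval of the count of peaks, 14.2% to 33.1%) overlapped a C2 peak, against 37.7% of all C3 peaks. The interval treats adjacent peaks of the same clusters as independent draws. It does not measure spread between animals, and the difference from all C3 peaks was not tested. The share followed the strength of the C3 peak. Below 5-fold it was 0 of 19 in the windows and 2.11% of all C3 peaks, from 5- to 10-fold 3 of 31 (9.68%) and 8.71%, from 10- to 20-fold 7 of 16 (43.8%) and 47.6%, and at 20-fold and above 6 of 6 and 96.7%. Within a class of strength, the *Hox* peaks were thus near the values of the whole list. Between clusters the 10- to 20-fold class gave 5 of 7 in Hoxa, 2 of 7 in Hoxb, and 0 of 1 each in Hoxc and Hoxd. Among all C3 peaks within 10% of its fold, 68.9% had a C2 peak for the 17.3-fold *Hoxb3* peak, 54.7% for *Hoxb5*, 51.9% for *Hoxb8*, 43.6% for the highest *Hoxc* peak, and 23.8% for the highest *Hoxd* peak, none of which had one.

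**Figure D3:**
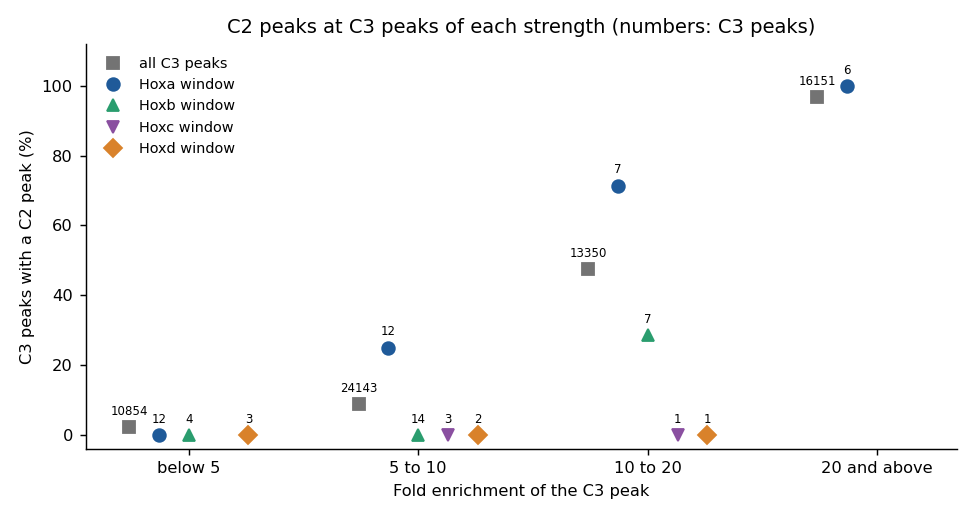
Share of C3 peaks that overlap a C2 peak (y axis, %) by class of C3 fold enrichment (x axis), for all C3 peaks (gray squares) and for the *Hox* windows (colored symbols), with the number of C3 peaks above each symbol. All C3 peaks rise from 2.11% to 96.7%, the Hoxa points lie above them from 5-fold on (3 of 12, 5 of 7, 6 of 6), and the Hoxb point from 10- to 20-fold (2 of 7) lies below.

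The clusters also carry miRNAs, shown here because the copies of each family lie in different clusters. Mature sequences are from RefSeq, and capitals mark the seed, bases 2 to 8.
miR-10a-5p: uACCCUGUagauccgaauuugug
miR-10b-5p: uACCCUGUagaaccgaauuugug
miR-196a-5p: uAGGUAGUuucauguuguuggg
miR-196b-5p: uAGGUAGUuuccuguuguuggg
miR-615-5p: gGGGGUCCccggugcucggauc
miR-10a-5p and miR-10b-5p share a seed and differ by U12A, and miR-196a-5p and miR-196b-5p share another and differ by A12C (positions from 1 at the 5′ end, the first-named miRNA's base first). *Mir10a*, beside *Hoxb4*, lay 0.825 kb from a C3 peak and 1.30 kb from a C2 peak. *Mir10b*, within *Hoxd4*, lay 9.95 kb and 99.6 kb away. *Mir196b* in Hoxa lay 0.757 kb from a C3 peak and 8.23 kb from a C2 peak. The 2 genes that give miR-196a-5p lay 3.33 kb (*Mir196a-1*, Hoxb) and 6.64 kb (*Mir196a-2*, Hoxc) from a C3 peak, and *Mir615*, in *Hoxc5*, 15.4 kb. Of these miRNAs, the copies in Hoxa and Hoxb were nearer to a peak of either library than those in Hoxc and Hoxd.

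RefSeq listed 24 start windows of 300 bases (250 before to 50 after a start) for 22 of the *Hox* genes. A C3 peak overlapped 6 of 24 (25%), at *Hoxa2*, *Hoxa3*, *Hoxa5*, *Hoxa6*, *Hoxa13*, and *Hoxb4*, and a C2 peak overlapped 1 (4.17%), at *Hoxa5*. Over all 32851 listed windows the shares were 38.1% and 29.8%. The *Hox* windows held a median of 14.5 CpG dinucleotides (4 to 45), and all windows 7. The 6 windows with a C3 peak had a median of 23 (9 to 45) and the 18 without 13 (4 to 37), and these ranges overlap. *Hoxd13*, with 37, had no peak, and *Hoxd4* had 4. On both strands, TGATTNAT, a PBX-HOX composite motif, was found in 2 *Hox* windows (*Hoxa2* and *Hoxd11*) and 3.22% of all windows. TGACAG, a MEIS motif, was found in 2 (*Hoxa2* and *Hoxa3*) and 19.2% of all. The direct repeat DR5 in its strict consensus, which retinoic acid receptors bind, was found in none and in 0.00913% of all.

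HOX proteins bind DNA with PBX, MEIS, and PREP (PKNOX) partners, and 7 of the 9 genes of these cofactors had peaks of both libraries at an end (77.8%, against 43.4% of all protein-coding genes). *Pknox1* had 146 in C3 and 38.6 in C2, *Pbx3* 81.1 and 20.3, *Meis1* 50.5 and 12.8, and *Meis2* 26.0 and 7.66. *Pknox2* had a C3 peak only and *Meis3* none. In C3, the fold enrichment at *Pknox1* and *Pbx3* was above that of every *Hox* gene.

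Of 25 Polycomb and Trithorax genes, which encode the proteins that hold *Hox* genes off or on, 20 had a peak of both libraries (80%, against 43.4% of all protein-coding genes). *Ezh2*, the H3K27 methyltransferase, had 63.1 in C3 and 23.2 in C2, its partner *Suz12* 66.4 and 19.0, *Jarid2* 96.4 and 36.6, and the Trithorax methyltransferase *Kmt2a* 55.7 and 13.6. *Kdm6b*, an H3K27 demethylase, had a C3 peak only (44.2), and *Ash2l*, *Cbx7*, *Dpy30*, and *Kdm6a* had none at either end.

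Retinoic acid acts directly on anterior *Hox* genes. Of 16 genes of its pathway, 4 had a peak of both libraries (25%, against 43.4% of all protein-coding genes). They were the receptors *Rxrb* (64.5 in C3, 21.7 in C2) and *Rxra* (19.9 and 8.13) and the synthetic enzymes *Rdh10* (36.8 and 14.2) and *Aldh1a3* (11.7 and 6.10). The receptors *Rara* (10.1) and *Rarg* (9.77) and the degrading enzyme *Cyp26a1* (8.79) had a C3 peak only. The other 9, *Rarb*, *Rxrg*, *Aldh1a1*, *Aldh1a2*, *Stra6*, *Crabp1*, *Crabp2*, *Cyp26b1*, and *Cyp26c1*, had no peak at either end in either library.

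Other homeobox genes of development gave lower shares than all *Hox* genes together, of which 56.4% had a C3 peak and 15.4% a peak of both. This did not hold for each cluster, as Hoxc and Hoxd had 22.2% and 33.3% in C3 and 0% for both. Of 12 *Dlx* and *Irx* genes, 3 had a C3 peak, against 53.9% of all protein-coding genes. A peak of both lay at 1 of them, *Irx5* (11.4 in C3, 6.10 in C2), which is 8.33%, against 43.4% of all protein-coding genes. Of the 6 ParaHox genes, *Gsx1* had a C3 peak (4.13) and none had a C2 peak. These lists are small, and the differences between them were not tested.

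**Figure D4:**
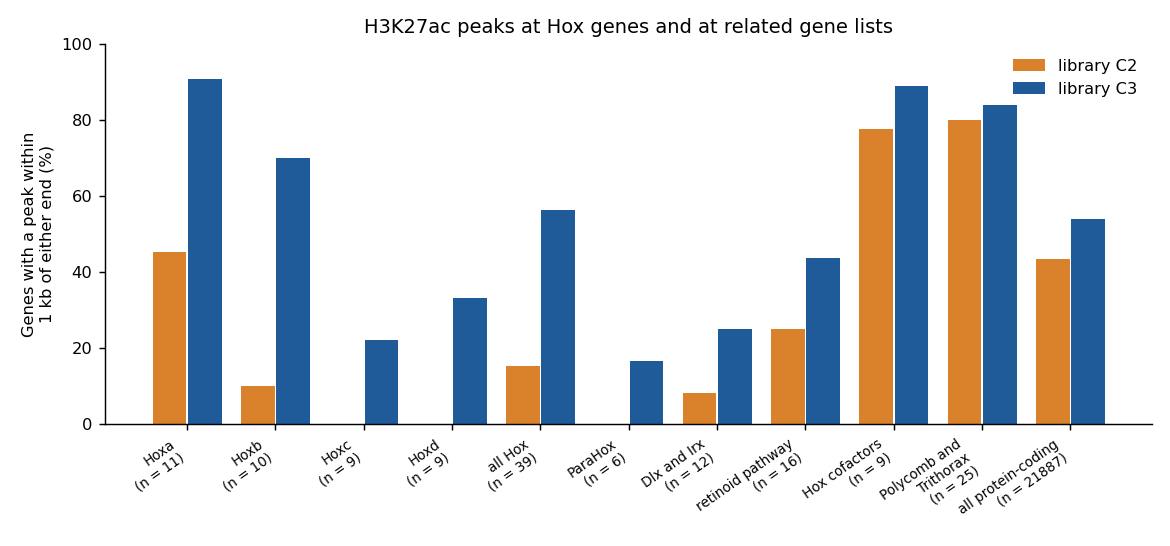
Percent of genes with an H3K27ac peak within 1 kb of either end (y axis) in C2 (orange) and C3 (blue), for each *Hox* cluster, all *Hox* genes, 5 related gene lists, and all protein-coding genes, with the number of genes under each pair of bars. All *Hox* genes stand at 15.4% in C2 and 56.4% in C3, beside 43.4% and 53.9% of all protein-coding genes, and Hoxc, Hoxd, and the ParaHox genes have no C2 bar.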

How the data were processed

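Peak lists of the 2 H3K27ac libraries, C2 and C3, were used. Per the submitters' processing notes the build was mm10 (GRCm38), with cutadapt 0.4.4, BWA 0.7.17, Picard 1.67, MACS2 2.0.10, and bedtools 2.27.1, roles not given. Whether the inputs served as controls is not given in the sources used here. The authors called peaks per library, and each deposited list of 10 columns gives the fold enrichment (a linear ratio), the −log10 of the p-value and of the q-value (0.01 or less), a score that rescales the latter, and the summit. Each count here depends on how strong and how deep a library was. The sample records describe sonication and a ligation-based kit, and the paper a tagmentation method.

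Peaks overlapping by at least 1 bp were shared and merged into regions. A percentile is a peak's rank by fold within its own list. A gene had a peak when 1 overlapped the 1 kb on either side of a gene end. Either end was used for all genes because a start with strand was listed for only 17492 protein-coding genes (22 of 39 *Hox* genes); exons were not separated from introns. All *Hox* genes, genes within the windows, members of the lists, and the 3 regions per cluster with the highest C3 fold could be named, but 1 *Hox* gene with its regions and 1 cofactor gene, though counted, are not reported here. The other regions named, and the examples among list members, were chosen after their values were seen. Sequences were copied from RefSeq GRCm38.p6 tables. Overlap counting was tested on simulated data. Members and lists were chosen with earlier results of these data known. Alternatives tried were an equal number of the strongest peaks per library, a q-value of 1e-05 or less, 50% reciprocal overlap, a distance of 2.5 kb, the gene body, other flanks, joined regions, the 5′ start, and each library alone. Calculations used matplotlib 3.10.9, pandas 2.3.3, scipy 1.17.1, and numpy 2.4.6 under Python 3.11.15.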

Additional observations from a re-analysis of the deposited data

How the results depend on the processing

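Each of 15 counts or shares was recomputed under the alternatives, 98 values in all. Of these, 78 stayed close to the main value and 20 did not. Close meant within 1.5 times for a count and within the spread of the libraries for coverage. For the share of C3 peaks it meant within the 95% Wilson interval, which treats adjacent peaks as independent. Since 99.2% of all C2 peaks overlapped a C3 peak, the values of C2 alone nearly repeated those of both libraries. With an equal number of the strongest peaks per library, *Hoxa* regions with peaks of both libraries fell from 14 to 9 and the share of C3 peaks in the *Hox* windows with a C2 peak rose from 22.2% to 57.9%. A reciprocal overlap of 50% gave 0 *Hoxb* regions in place of 2 and a share of 13.9%. With 50 kb flanks there were 4 *Hoxb* regions. *Dlx* and *Irx* genes with peaks of both went from 1 to 2 at 2.5 kb and to 2 with the gene body, which also took the retinoid genes from 4 to 9. Counted by the 5′ start, an alternative chosen after seeing the data, 5 *Hox* genes had peaks of both in place of 6.

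With each library alone, the count was 6 to 22 for *Hox* genes, 7 to 8 for cofactors, 20 to 21 for Polycomb and Trithorax genes, 0 to 1 for ParaHox, 1 to 3 for *Dlx* and *Irx*, and 4 to 7 for retinoid genes. Regions were 15 to 37 in Hoxa, 2 to 25 in Hoxb, 0 to 4 in Hoxc, and 0 to 6 in Hoxd, and coverage was 3.63% to 11.3%, 0.212% to 4.67%, 0% to 0.947%, and 0% to 1.12%. The higher value was that of C3 in each case, so the counts that need both libraries rest on C2. No paired analysis was possible because no difference of condition is given between the H3K27ac libraries and the inputs with the same numbers were not analysed. Without read counts, depth cannot be separated from a lower level of the mark where C2 has no peak.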
